A study of Mus musculus with 5 samples.

Results

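The connexin genes of glia, vessels and neurons were examined in mouse spinal cord RNA: 9 genes of the 55471 identifiers in the count table, found by matching Ensembl gene identifiers to their symbols on GRCm38. They are Gja1, Gjb6 and Gjb2 (astrocytes), Gjb1 and Gjc3 (myelinating cells), Gjc1, Gja4 and Gja5 (vessels) and Gjd2 (neurons). The group was selected on measured values, the read counts of these same libraries, in which Gjb6 had been seen lower in knockout cord, so the knockout and wild type levels of the 9 genes are a description, and the counts of them that pass a test are printed once, beside the share of all genes, without a reading. All 9 had enough counts to enter the comparison of genotypes across 16052 genes. The study sequenced polyadenylated RNA of whole spinal cord from resting male C57BL/6J mice aged 3 months, with 3 wild type (WT) libraries and 2 of the Lhx1os -/- genotype (KO). The targeted locus, Lhx1os, encodes a long non-coding RNA. In the KO, made with Cas9 and 1 guide RNA in fertilized eggs, a synthetic polyadenylation site followed by polymerase-destabilising MAZ elements was placed in the second exon of the gene in place of a deletion, and the number of founder animals was not given in the labels. Each library's label carries a number of its own, but no label says that it is an animal's number, and if the libraries did not come from separate animals, p-values measure only the spread between these libraries, which may be technical.

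Connexins are the subunits of gap junctions. A ring of connexins in each of a pair of touching cells joins into a channel that passes ions and small metabolites, and unpaired rings can open to the outside as hemichannels. Astrocytes couple to each other through connexin 43 (Gja1) and connexin 30 (Gjb6), with some connexin 26 (Gjb2), which is also made by meningeal cells. Oligodendrocytes carry connexin 32 (Gjb1), one of the connexins through which they couple to astrocytes, while connexin 29 (Gjc3) lies on the inner myelin membrane facing the axon and is not known for forming ordinary junctions. Endothelial and mural cells of vessels use connexins 37 (Gja4), 40 (Gja5) and 45 (Gjc1). Connexin 36 (Gjd2) forms the electrical synapses of neurons.

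The libraries held 15973063 to 19437533 counts over 21540 to 21913 genes with a count. Levels are given as CPM, read counts scaled to a common effective library size, with fold changes fitted on the counts and given as log2 of KO over WT. Lhx1os, the targeted gene, stood at 3.33, 3.37 and 3.14 CPM in WT and 0.797 and 0.688 CPM in KO. Every marker of astrocytes, mature oligodendrocytes, endothelial and mural cells and neurons that was looked up (16, 14, 13, 9 and 14 genes) had counts, with Slc1a2, Gfap and Glul leading the astrocyte list, Mbp and Mobp among the most abundant of the oligodendrocyte list and Snap25, Nefl and Nefm leading the neuron list. In whole tissue, fewer cells of a type and less RNA per cell cannot be told apart.

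Gjb6 and Gjb2 are neighbours on mouse chromosome 14. Both lie on the minus strand of GRCm38, Gjb2 (ENSMUSG00000046352) from 57098600 to 57104702 and Gjb6 (ENSMUSG00000040055) from 57123303 to 57133611, and Gja1 (ENSMUSG00000050953) occupies 56377330 to 56402513 of chromosome 10, plus strand. The rest of the group is scattered: Gjb1 on chromosome X, Gjc3 on 5, Gjc1 on 11, Gja4 on 4, Gja5 on 3 and Gjd2 on 2. No annotated transcript of Gja1, Gjb6, Gjb2, Gjb1, Gjc1 or Gja4 has more than 1 coding exon, and those of Gjc3, Gja5 and Gjd2 have at most 2. The 250 bases before the RefSeq start of the 3 astrocyte connexins (GRCm38.p6, coding strand, 5′ to 3′) are shown because 2 of them lie side by side. Gjb2 is also made by meningeal cells. Whether these sequences bear on the levels across the libraries was not tested. Capitals mark matches to the GC box GGGCGG, on either strand; TATAAA and CCAAT were searched in the same way and occur in none of the 3.
Gjb6, chr14:57133612-57133861, minus strand: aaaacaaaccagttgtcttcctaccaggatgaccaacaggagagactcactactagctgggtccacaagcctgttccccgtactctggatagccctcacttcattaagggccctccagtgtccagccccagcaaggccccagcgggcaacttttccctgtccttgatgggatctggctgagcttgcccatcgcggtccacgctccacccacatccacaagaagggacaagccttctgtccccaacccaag
Gjb2, chr14:57104703-57104952, minus strand: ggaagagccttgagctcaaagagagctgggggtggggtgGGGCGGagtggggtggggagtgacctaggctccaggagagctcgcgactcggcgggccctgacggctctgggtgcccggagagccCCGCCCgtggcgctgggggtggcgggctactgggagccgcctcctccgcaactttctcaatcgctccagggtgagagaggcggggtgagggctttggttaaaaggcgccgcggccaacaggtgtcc
Gja1, chr10:56377050-56377299, plus strand: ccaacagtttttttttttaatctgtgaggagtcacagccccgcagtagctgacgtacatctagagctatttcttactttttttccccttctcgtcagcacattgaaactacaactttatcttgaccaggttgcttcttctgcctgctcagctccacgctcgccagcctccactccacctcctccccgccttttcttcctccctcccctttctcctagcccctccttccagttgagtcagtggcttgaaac

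The Gjb2 promoter held 18 CpG dinucleotides and 2 GC boxes, against 5 CpG and 0 GC boxes for Gjb6 and 6 CpG and 0 GC boxes for Gja1. Among the 32851 RefSeq promoter entries of the same length, 21.7% had at least 18 CpG, 55.6% at least 5 and 50.4% at least 6. A GC box occurs in 32.7% of the entries, TATAAA in 12.4% and CCAAT in 33.8%, so the absence of all 3 motifs in the Gjb6 and Gja1 windows is a description of these letters only. The promoter table matched 8 of the 9 genes, and Gjc1 was the exception. Among the others, the neuronal gene Gjd2 had the most CpG, 33, and Gjc3 had 3.

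The glial connexins other than Gjb2 made up the upper end of the group and the vascular ones the lower end, when levels were compared per kilobase (kb) of the union of annotated exons. In WT, Gjb1 stood at 55.4 ± 4.45 CPM per kb (SD, n = 3), Gjb6 at 41.5 ± 1.25, Gjc3 at 36.2 ± 2.13 and Gja1 at 34.0 ± 2.85. Over all 5 libraries Gjb1 did not overlap Gjb6, whereas Gjb6 overlapped Gjc3, and Gjc3 overlapped Gja1. After a gap came Gjb2 at 6.55 ± 2.27 and Gjd2 at 6.05 ± 0.182 CPM per kb, which overlapped each other. Gja4 at 1.76 ± 0.796, Gjc1 at 0.830 ± 0.198 and Gja5 at 0.126 ± 0.0433 CPM per kb closed the order, with no overlap between neighbours. The place of Gja1 rests on its length. Its exons unite to 10257 bases but its longest transcript has 3889, and per kb of the longest transcript Gja1 came first, at 89.8 ± 7.52 CPM per kb, ahead of Gjb1 at 59.7 ± 4.79 and Gjb6 at 52.8 ± 1.59. With that length Gja4 and Gjc1 overlapped.

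**Figure D1:**
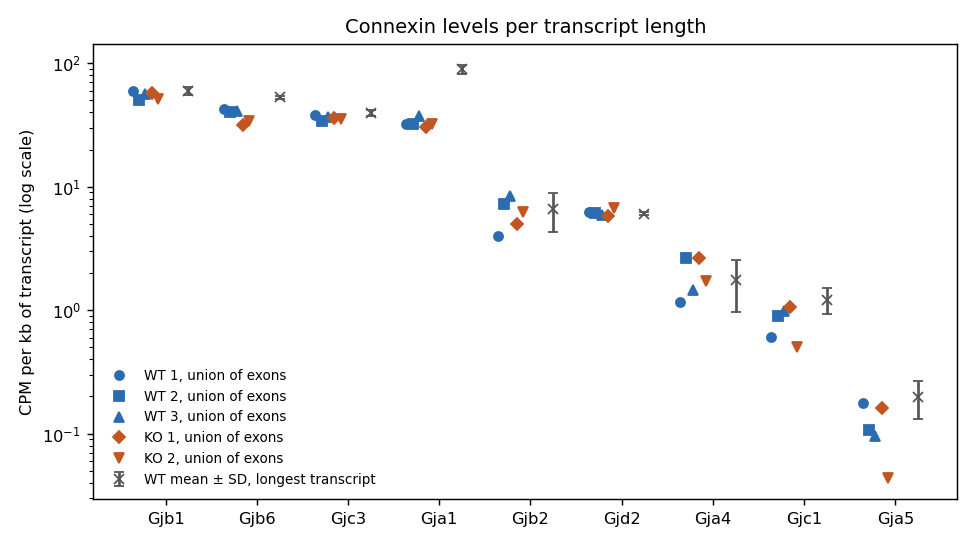
Levels of the 9 connexin genes in CPM per kb of transcript, on a log axis; coloured points are the 5 libraries with the union of exons as length, and grey crosses with bars are the WT mean ± SD with the longest transcript as length. Gjb1, Gjb6, Gjc3 and Gja1 lie above 30 CPM per kb in every library, Gjb2 and Gjd2 between 4.01 and 8.39, and Gja1 is the gene whose level moves most with the length used.

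Gjb6, the connexin 30 gene, separated the genotypes, with no overlap between KO and WT. Its level was 114.7, 108.0 and 110.5 CPM in WT and 84.2 and 90.5 CPM in KO. The WT libraries lay close together, with a coefficient of variation of 3.01%, and the higher KO library lay under the lowest of them. Averaged by genotype, Gjb6 was at 111.1 ± 3.35 CPM for WT (SD, n = 3) against 87.4 ± 4.46 CPM for KO (SD, n = 2), and the log2 fold change was −0.35 (SE 0.06). On the per-kb scale Gjb6 came second in WT, at 41.5 CPM per kb, and in KO, at 32.7, it lay below Gjc3 at 35.5.

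The other abundant astrocyte connexin, Gja1, showed a smaller difference. It stood at 332.6, 332.0 and 383.0 CPM in WT and at 310.8 and 327.2 CPM in KO. The groups did not overlap, but the gap between KO replicate 2 and the lowest WT library was small beside the spread of the WT libraries. Gja1 averaged 349.2 ± 29.3 CPM for WT and 319.0 ± 11.6 for KO. Its log2 fold change of −0.13 (SE 0.07) shrank to −0.06 when WT replicate 3, where Gja1 was highest, was left out.

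Gjb2 varied more between WT libraries than between genotypes. It stood at 9.64, 17.4 and 20.2 CPM in WT and 12.02 and 14.94 CPM in KO, so both KO libraries lay inside the WT range. WT replicate 1 was the lowest of the 5 and WT replicate 3 the highest. The log2 fold change was −0.23 (SE 0.25). It was −0.48 without WT replicate 1, −0.02 without WT replicate 3, −0.08 without KO replicate 1, −0.39 without KO replicate 2 and 0.03 with the replicate number as a block.

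The 2 connexins of myelinating cells overlapped between the genotypes. Gjb1, mutated in an inherited neuropathy of peripheral nerve, stood at 101.7, 86.6 and 95.5 CPM in WT and 98.7 and 88.1 in KO. Gjc3 stood at 166.3, 147.8 and 158.3 CPM in WT and 157.0 and 152.6 in KO. For both genes the KO libraries lay inside the WT range. The log2 fold changes were −0.02 (SE 0.08) for Gjb1 and −0.02 (SE 0.07) for Gjc3, and both changed sign when WT replicate 1 was left out.

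The neuronal connexin Gjd2 was at 17.9, 17.5 and 16.9 CPM in WT and 16.6 and 19.2 CPM in KO. The KO libraries lay on either side of the WT libraries, whose coefficient of variation was 3.00%, and the log2 fold change was 0.04 (SE 0.11). A small part of Gjd2 (2 stretches of 18 and 57 exon bases) is shared with A530058N18Rik on the other strand, and Gja5 shares 165 exon bases with Gpr89 on the other strand; without a stated strand setting these reads cannot be assigned with certainty.

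The vascular connexins were scarce and scattered. Gjc1 had 51, 88 and 80 counts in WT and 87 and 40 in KO, or 3.03, 4.50 and 4.93 CPM against 5.34 and 2.50 CPM. Gja4 had 33, 88 and 40 counts in WT and 73 and 46 in KO, or 1.96, 4.50 and 2.46 CPM against 4.48 and 2.88 CPM. Gja5 had 17, 12 and 9 counts in WT and 15 and 4 in KO. In each of the 3 the genotypes overlapped, and for Gjc1 and Gja5 KO replicate 1 was among the upper libraries and KO replicate 2 the lowest. The log2 fold changes were −0.08 (SE 0.32), 0.29 (SE 0.35) and −0.30 (SE 0.55), errors too wide to tell a change of the size seen in Gjb6 from none. Each sign turned when 1 KO library was left out: without KO replicate 1 the values were −0.73 for Gjc1, −0.07 for Gja4 and −1.51 for Gja5, and without KO replicate 2 they were 0.36, 0.57 and 0.34.

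**Figure D2:**
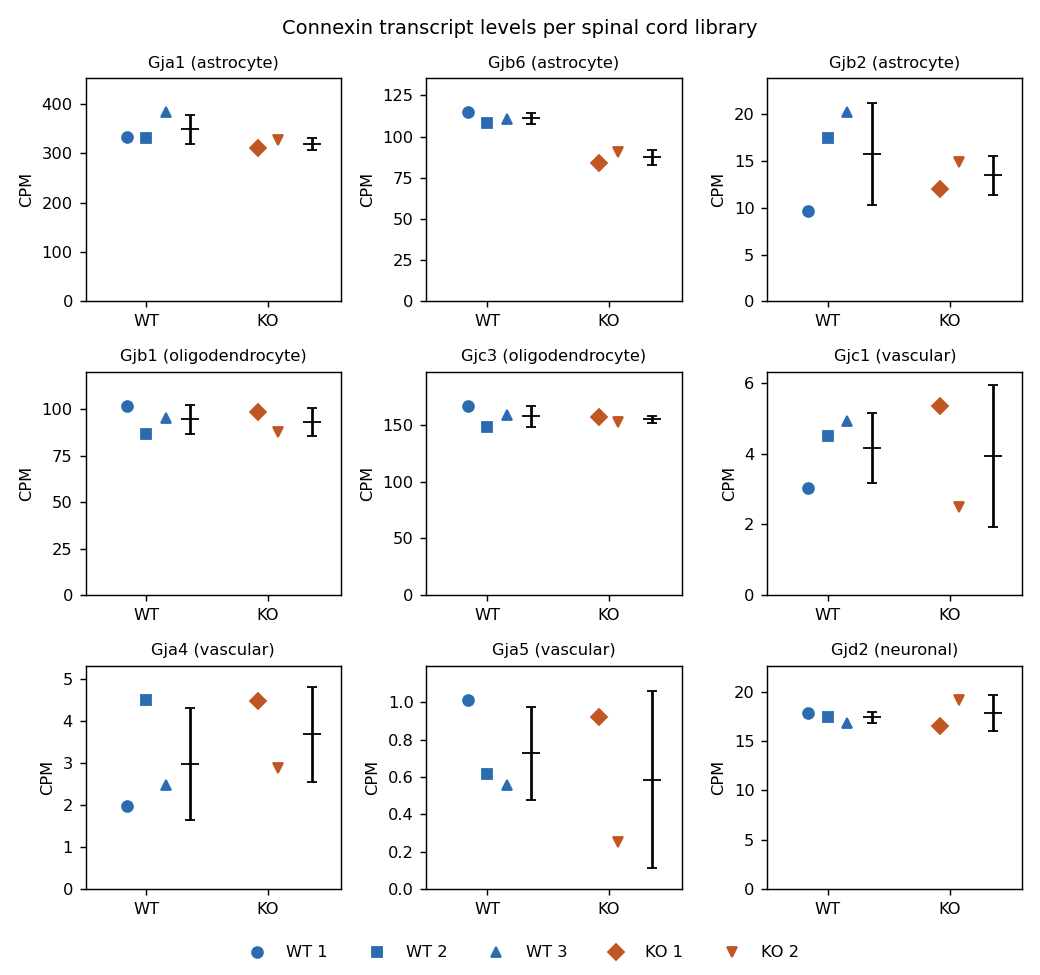
CPM of the 9 connexin genes by genotype, each axis from 0; points are libraries and black bars show mean ± SD (WT n = 3, KO n = 2). For Gjb6 the KO libraries at 84.2 and 90.5 CPM lie below the WT libraries at 108.0 to 114.7, and for 7 of the 9 genes the groups overlap.

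Over all 9 genes, 7 had a lower mean log2 level in KO and 2 a higher one, with a median log2 fold change of −0.08 where the median of all 16052 genes tested was 0.0044. The groups did not overlap for 2 of the 9, Gjb6 and Gja1, both with KO below WT; 24.9% of all genes tested did not overlap in either direction, 1920 of the 16052 with KO below WT and 2075 with KO above. None of the 9 passed an adjusted p of 0.05 in edgeR's quasi-likelihood test, which 0.0187% of all genes tested did, and 1 was under an unadjusted p of 0.05, as 7.57% of all genes were. DESeq2, which called 0.265% of its genes, passed Gjb6, as did edgeR without a filter on low counts, which called 0.373%; limma-voom passed none of the 9. Because this contrast chose the genes, these counts are given without a reading.

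Set against its partners within each library, Gjb6 was lower in KO relative to Gja1, both myelin connexins and Gjd2. Since Gjb6 was chosen for its lower level, these ratios are a description. The log2 ratio of Gjb6 to Gja1 was −1.54, −1.62 and −1.79 in WT and −1.88 and −1.85 in KO, a difference of −0.22 between the group means. WT replicate 3 lay within 0.0610 of the nearer KO library, so the groups were only just apart. The log2 ratio of Gjb6 to Gjc3 was −0.54, −0.45 and −0.52 in WT and −0.90 and −0.75 in KO, a difference of −0.32 with a gap of 0.217 between the groups. The difference was −0.33 against Gjb1 and −0.38 against Gjd2, again without overlap. Against Gjb2 and the 3 vascular genes the groups overlapped, with differences of −0.18 for Gjb2, −0.19 for Gjc1, −0.71 for Gja4 and 0.20 for Gja5. Leaving out each library in turn kept the sign of the difference against Gja1 (−0.29 to −0.16), Gjb1, Gjc3, Gja4 and Gjd2 in all 5 cases. The sign turned for Gjb2 without WT replicate 1 (0.16), for Gjc1 without WT replicate 1 (0.04) or KO replicate 1 (0.41) and for Gja5 without WT replicate 1 (−0.04) or KO replicate 2 (−0.79).

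**Figure D3:**
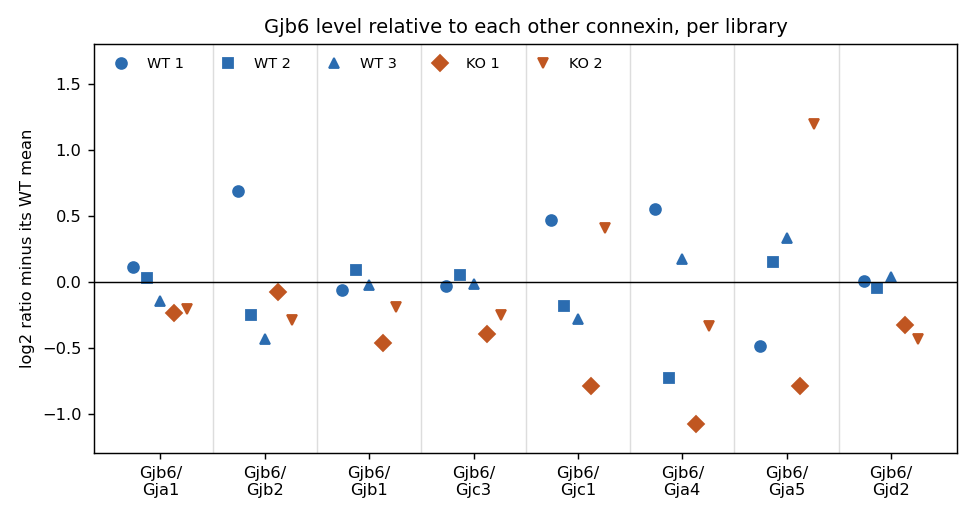
Log2 ratio of Gjb6 CPM to the CPM of each other connexin, per library, minus the WT mean of that ratio; colours give the genotype and symbols the library. Both KO libraries lie below all WT libraries for Gja1, Gjb1, Gjc3 and Gjd2, with the widest gap for Gjd2 (0.282), and are mixed with them for Gjb2, Gjc1, Gja4 and Gja5.

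The summed level of the astrocyte markers overlapped between the genotypes, as did 13 of the 16 markers taken singly (24.9% of all genes tested did not overlap). Of the other 3, named after their values were seen, Sox9 was above WT in both KO libraries (21.2 to 23.9 CPM in WT, 29.4 and 29.3 in KO), while Fgfr3 (249.3 to 269.8 CPM in WT, 246.9 and 236.5 in KO) and Glul (1834 to 1896 CPM in WT, 1725 and 1564 in KO) were below. The summed level of the 16 markers ran from 12626 to 13952 CPM in WT and from 12855 to 13389 CPM in KO, and none was at 0. Of the 16, 0 passed in edgeR, DESeq2 or limma-voom, where edgeR passed 0.0187% of all genes tested. In edgeR 2 were under an unadjusted p of 0.05, as 7.57% of all genes tested were. With the WT mean set to 0, the markers' mean log2 level was 0.05, −0.06 and 0.01 for WT and 0.0036 and −0.02 for KO. Gjb6 amounted to 0.822%, 0.856% and 0.818% of the summed CPM in WT and 0.629% and 0.704% in KO, whereas the share of Gja1 overlapped between the genotypes. Since Gjb6 was chosen for its lower level, its share is a description. The part of the astrocyte list in the Gjb6 values was not tested.

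The summed level of oligodendrocyte precursor markers was, like Gjb6, lower in each KO library than in any WT library. The 10 markers, led by Ptprz1, Olig1 and Tnr, summed to 876.3, 872.2 and 846.7 CPM in WT and 817.6 and 789.4 CPM in KO, and none was at 0. Of all genes tested 24.9% did not overlap in either direction, 1920 of the 16052 with KO below WT. The groups did not overlap for 6 of the 10, each with KO below WT. In edgeR 0 passed, where 0.0187% of all genes tested did. In the same test 5 were under an unadjusted p of 0.05, where 7.57% of all genes tested were. Of the 10, 8 had negative and 2 positive log2 fold changes, the latter being Olig1 (0.16, SE 0.08) and Cspg4 (0.01, SE 0.14). Tnr was at −0.02 (SE 0.06). Gpr17, a receptor of differentiating precursors singled out after its values were seen, stood at 67.3, 69.5 and 67.3 CPM in WT and 39.9 and 48.8 in KO. Gpr17 was at −0.62 (SE 0.09) as log2 of KO over WT; edgeR gave it an adjusted p of 0.0603, and it passed in DESeq2 but not in limma-voom. The summed level of 8 ependymal markers ran the other way, at 42.2 to 51.2 CPM in WT and 52.8 and 52.2 in KO. Foxj1 led that sum, at 25.6 to 28.9 CPM in WT and 32.6 and 32.6 in KO. With the WT mean set to 0, the mean log2 level of the list overlapped (−0.28, −0.03 and 0.31 in WT, 0.14 and 0.05 in KO). Of the 7 tested ependymal markers 3 had negative and 4 positive log2 fold changes, and 0 passed in edgeR, DESeq2 or limma-voom. The part of these lists in the Gjb6 values was not tested.

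Gjb2 and the mean log2 level of markers of the meninges put the 5 libraries in the same order. The 18 meningeal fibroblast markers, led by Col1a2, Dcn and Fmod, summed to 341.6, 633.4 and 748.4 CPM in WT and to 414.4 and 445.9 CPM in KO; 18 of 18 had negative log2 fold changes, 0 passed in edgeR and none was at 0. Over all genes, leaving out WT replicate 1 took the number passing in edgeR from 3 to 58. Without that library, which had the lowest sum, 8 of the 18 meningeal markers passed. Gjb2 amounted to 2.82%, 2.75% and 2.70% of this sum in WT and 2.90% and 3.35% in KO. Its own level differed 2.09-fold between the lowest and the highest library, and its share of the meningeal sum 1.24-fold, as did its share of the Schwann cell sum (2.47% to 3.07%). The mean log2 level of 9 Schwann cell markers, with Pmp22 and Drp2 among the most abundant, put the 5 libraries in the same order as Gjb2, summing to 385.5 to 696.0 CPM in WT and 441.2 to 603.8 in KO. Their part in the Gjb2 values was not tested. Gjb6 did not put the libraries in the order of the meningeal list: WT replicate 1, the library with the least meningeal signal, had the most Gjb6. Both KO libraries had less meningeal signal than WT replicates 2 and 3, and also less Gjb6. The share of Gjb6 in the meningeal sum ran from 14.8% to 33.6%. The part of the meningeal list in the Gjb6 values was not tested.

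**Figure D4:**
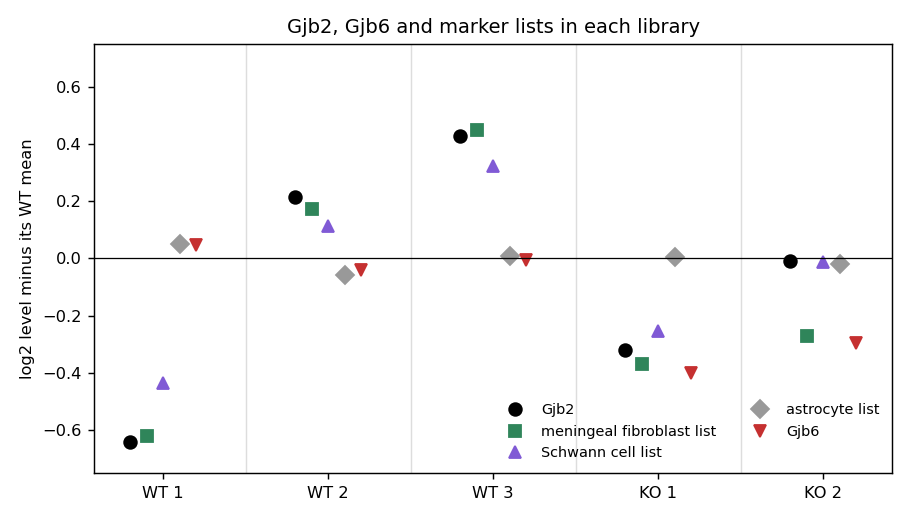
Log2 level minus its WT mean, in each of the 5 libraries, for Gjb2, Gjb6 and the mean of the meningeal fibroblast, Schwann cell and astrocyte marker lists (list means use log2 of CPM plus 0.5). Gjb2 runs from −0.64 in WT replicate 1 to 0.43 in WT replicate 3 beside the meningeal list (−0.62 to 0.45), while the astrocyte list stays between −0.06 and 0.05 and Gjb6 is lowest in both KO libraries.

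The other connexins were set beside the lists of their own cell types. Gjb1 took 0.268% of the oligodendrocyte sum in each of the 3 WT libraries and 0.292% and 0.263% in KO, and Gjc3 took 0.438% to 0.458% in WT and 0.465% and 0.455% in KO. The oligodendrocyte list ran from 32290 to 37976 CPM in WT and 33505 to 33769 in KO. Gjc1 followed the 9 mural markers in WT, at 1.05%, 1.07% and 1.08% of a sum that ran from 288.7 to 455.5 CPM, and stood at 1.33% and 0.871% in KO, where the sum was 402.1 and 287.0 CPM. The mural list was thus low in WT replicate 1 and KO replicate 2, the libraries with the least Gjc1. The 13 endothelial markers ran from 486.6 to 634.1 CPM in WT and from 428.0 to 640.1 in KO, with the same KO library low. Gja4 and Gja5 did not keep to this list: the share of Gja4 ran from 0.404% to 0.709%, a 1.76-fold range beside 2.29-fold for its level, and that of Gja5 from 0.0584% to 0.208%, 3.56-fold beside 4.05-fold. Of the 14 neuron markers 11 had positive log2 fold changes and 0 passed, where edgeR passed 0.0187% of all genes tested. Their sums were 8803 to 10627 CPM in WT and 9837 to 10712 in KO. Gjd2 took 0.169% to 0.198% of these sums in WT and 0.155% and 0.195% in KO. The part of these lists in the connexin values was not tested.

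None of the tested genes around Gjb6 on chromosome 14 passed the test. Of 29 genes outside the 9 connexins whose lower coordinate lies within 500 kb of that of Gjb6, 12 had enough counts to be tested. Of these 0 passed in edgeR, DESeq2 or limma-voom, where edgeR passed 0.0187% of all genes tested. In edgeR 0 were under an unadjusted p of 0.05, where 7.57% of all genes tested were. The nearest tested gene was Gm4491, a gene model of unknown function with its lower coordinate 10.8 kb from that of Gjb6. It had 55 counts in all and a log2 fold change of 0.64 (SE 0.42). Cryl1, which encodes a lambda-crystallin-type enzyme of sugar metabolism, was at −0.03 (SE 0.19), with its lower coordinate 151.7 kb from that of Gjb6. Zmym2, a zinc finger gene, was at −0.11 (SE 0.07). The cilium gene Ift88 stood at 0.02 (SE 0.10), Pspc1, a paraspeckle protein gene, at −0.10 (SE 0.09) and Xpo4, a nuclear transport receptor gene, at −0.10 (SE 0.10). Mphosph8 (0.01, SE 0.08), Zmym5 (−0.04, SE 0.08), Eef1akmt1 (−0.14, SE 0.12), Il17d (−0.07, SE 0.22), Gm16973 (0.09, SE 0.23) and 2410022M11Rik (0.10, SE 0.36) completed the neighbours. The adjusted p-values of the neighbours in edgeR ran from 0.748 to 0.987. For Gm4491, Cryl1, Il17d, Gm16973 and 2410022M11Rik the errors were too wide to tell a change of the size seen in Gjb6 from none.

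**Figure D5:**
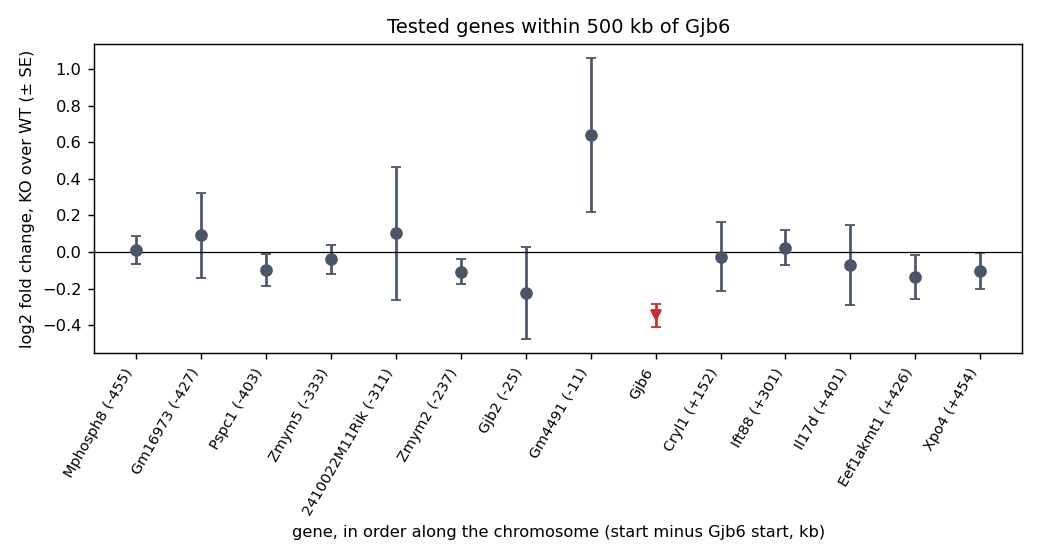
Log2 fold change of KO over WT with its SE for Gjb6 (red triangle) and the 13 tested genes within 500 kb of it, in order along chromosome 14. The distance of each start from that of Gjb6 in kb is given beside the name. Start here means the lower coordinate on either strand. Gjb6 stands at −0.35 and the neighbours other than Gjb2 and Gm4491 between −0.14 and 0.10.

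The pannexins Panx1 and Panx2, which form large-pore membrane channels, were both measured well enough to be tested. Neither passed in edgeR (adjusted p = 0.904 for Panx1 and 0.774 for Panx2), DESeq2 or limma-voom, and neither was under an unadjusted p of 0.05 in edgeR. Panx2 stood at 159.0 ± 19.6 CPM in WT and 173.4 ± 3.34 in KO (log2 fold change 0.12, SE 0.09), and Panx1 at 13.8 ± 0.783 and 14.5 ± 0.326 CPM (0.07, SE 0.11). A further 11 connexin and pannexin genes were not tested, with at most 6 counts each over the 5 libraries together, and Gja3, which lies beside Gjb2, had 5.

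Among 37 genes whose products bind, move, modify or work beside gap junctions, none passed. In edgeR 36 were tested, 19 with negative and 17 with positive log2 fold changes and a median of −0.01. Of these 0 passed, as in DESeq2 and limma-voom, where edgeR passed 0.0187% of all genes tested. In edgeR 3 were under an unadjusted p of 0.05 (Src, Ccn3 and Prkcd), as 7.57% of all genes tested were. Src, a tyrosine kinase that phosphorylates connexin 43, stood at 49.2 ± 3.70 CPM in WT and 56.5 ± 2.44 in KO (log2 fold change 0.20, SE 0.08; adjusted p = 0.641). Ccn3, a matricellular protein that binds connexin 43, was at −0.58 (SE 0.24; adjusted p = 0.651); without KO replicate 1 it was −0.28 and without KO replicate 2 −0.96. The kinase gene Prkcd was at −0.25 (SE 0.11) and Ubqln4, whose product binds connexin 43 on its way to the proteasome, at 0.13 (SE 0.07). The most abundant members, Slc1a2 (0.05, SE 0.07), Tubb4a (0.11, SE 0.06), Kcnj10 (−0.0033, SE 0.08) and Tuba1a (0.08, SE 0.06), did not pass either, with adjusted p-values in edgeR of 0.692 to 0.996.

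The genes whose levels ran most like Gjb6 over the 5 libraries were not connexins. Likeness was the root mean square difference in log2 CPM, centred on each gene's mean, over 10445 other genes of at least 10 CPM. The nearest were Map4k5 (0.0248), Cbfb (0.0314), Rab31 (0.0317), Mkx (0.0323), Lrrc1 (0.0342) and Cdk19 (0.0353). Map4k5, a kinase gene, stood at 71.0, 68.9 and 67.3 CPM in WT and 53.4 and 55.9 in KO. These 6 genes were picked for likeness to Gjb6 in the same libraries, so their lower levels in KO follow from that choice. No test of them is given. Of the connexins, Gja1 ranked 1296 in this order with a difference of 0.135, Gjc3 3185, Gjb1 4819, Gjd2 5087 and Gjb2 10332.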

How the data were processed

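The deposited values are raw read counts per Ensembl gene in 1 table over all libraries, without normalization. Per the submitters' processing notes, cutadapt, Trimmomatic, STAR 2.5.2b, HTSeq and GRCm38 were used. For the annotation release and strand setting: not given in the sources used here. Symbols, coordinates and exon lengths came from GENCODE M21 (55230 identifiers matched) and promoters from RefSeq GRCm38.p6. The connexins and lists were chosen with earlier results of these data known. Libraries of a group differed beyond sampling noise (chi-square per degree of freedom 4.01 to 7.47), so none was a copy.

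Genes were filtered with filterByExpr (minimum count 10, minimum total 15), scaled by TMM (factors 0.982 to 1.01) and compared with edgeR 4.0.16 (quasi-likelihood test, R 4.3.3), adjusted by Benjamini-Hochberg at 0.05; the code was tested on simulated data. DESeq2 1.42.0 and limma 3.58.1 (voom), other scalings, filters and dispersions, a replicate block and leaving out each library were alternatives. Named genes were the 9 connexins, tested relatives and neighbours, the 4 partner genes of smallest p and the 4 most abundant, the 6 genes most like Gjb6 and the 3 leading markers of each list described; some genes this rule covers are not reported here. The likeness and the list means used log2 of CPM plus 0.5. Lists for arterial endothelium and microglia (6 and 8 genes) had 0 passing genes, with median log2 fold changes of 0.0017 and −0.04.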

Additional observations from a re-analysis of the deposited data

How the results depend on the processing

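The sign of the Gjb6 difference held in all 12 alternatives (log2 fold change −0.40 to −0.30), as did that of Gja1 (−0.17 to −0.06). Each of the other 7 connexins changed sign in at least 1. Gjb6 was chosen for its lower level in these same libraries, whose counts the alternatives reuse, so its kept sign is a description. The number of the 9 lower in KO was 7, and 4 to 8 with a library left out. The count of genes past the threshold, 3 in edgeR, was 6 with DESeq2 size factors, 96 without a filter, 40 in DESeq2, 1 in limma-voom, 12 with robust dispersion and 0 to 58 with a library left out (58 without WT replicate 1, 10 without WT replicate 3, 1 without WT replicate 2, 0 without KO replicate 1); the cause was not tested. With the replicate block it was 25. The numbers 1 and 2 are shared by the genotypes, but no label says that they pair the libraries. The correlation of deviations was 0.0579 for number 1 and 0.00203 for number 2. It was 0.062 for WT replicate 3 with KO replicate 2, which share no number. The deviations of the 2 KO libraries from their mean mirror each other, so these values cannot show whether the numbers pair the libraries. The partner, family and neighbour lists had 0 genes past the threshold in each alternative. The WT level of Gjb6 was 41.5 CPM per kb with the union of exons and 52.8 with the longest transcript, which is shorter by construction. Among genes that did not pass, signs turned with the replicate block for Cryl1 (0.064) and 2410022M11Rik (−0.0079). With a library left out log2 fold changes spanned 0 for Kcnj10 (−0.052 to 0.075), Mphosph8 (−0.072 to 0.081), Gm16973 (−0.17 to 0.31), Zmym5 (−0.13 to 0.040), 2410022M11Rik (−0.015 to 0.30), Cryl1 (−0.28 to 0.18), Ift88 (−0.015 to 0.077) and Il17d (−0.30 to 0.13). With 2 KO libraries, leaving 1 out assumes that the other varies like the WT libraries. Counts of 4 to 88 per library limit the vascular connexins.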
